A study of Mus musculus with 4 samples.

Results

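Interleukin-1 (IL-1) family cytokines and the inflammasome genes that process them were followed as a set of 10 genes in myeloid-derived suppressor cells (MDSCs), myeloid cells that restrain T cells, generated in vitro from mouse bone marrow. The genes were taken by symbol: the cytokines Il1a, Il1b, Il18 and Il1f9 (the name the files use for IL-36 gamma), the receptor antagonist Il1rn, the decoy receptor Il1r2, the IL-18 receptor subunit Il18rap, the proteases Casp1 and Casp4, and the sensor Nlrp3. All 10 were present among the 32285 genes of the files, and all 10 had at least 50 unique molecular identifiers (UMIs, 1 per captured RNA molecule) in the 2 libraries compared.

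Bone marrow of wild type (WT) C57BL/6J mice was cultured for 4 days with IL-6 and GM-CSF at 40 ng/mL each. The catecholamine isoproterenol (ISO, 10 µM) was added from the start in 1 culture, with PBS in the other. Cells were tagged by culture, after which live CD11b+ cells were sorted, pooled and captured on the 10X Genomics platform. The 2 libraries compared, 1 per group, were WT+PBS with 2210 cells and 24393687 UMIs, and WT+ISO with 2264 and 29400468. The other 2 libraries of the series are not reported here, although their cells took part in the clustering. The methods name mice of both sexes, whereas the study's reporting summary names females, and how many mice stood behind each culture is not given.

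Some facts of the libraries bear on every value. The sample titles and the methods place ISO in the library named for it, whereas the treatment field of every sample names isoproterenol, and the titles were followed. Itgam, which encodes CD11b, had a UMI in 87.5% of WT+PBS cells and 88.4% of WT+ISO cells. No barcode was shared between libraries. The tag of the own culture held a median of 94.8% and 96.5% of a cell's tag UMIs. With 1 library per group no test was possible, so levels, ratios and shares are given with 95% intervals that cover counting error only, not differences between cultures or mice. UMIs of a gene held by few cells are not independent, which these intervals leave out. Levels are UMIs of a gene per 1000000 UMIs of its library or cluster (CPM).

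IL-1α and IL-1β signal through the receptor Il1r1 and drive fever, neutrophil recruitment and emergency myelopoiesis. IL-1β and IL-18 are made as inactive precursors that caspase-1 cleaves once a sensor such as NLRP3 has assembled an inflammasome, so RNA levels do not report secreted cytokine. IL-1 receptor antagonist occupies Il1r1 without signaling, and IL-1R2 binds IL-1 without a signaling domain. Both are well known products of neutrophils and macrophages. Mouse caspase-4, also called caspase-11, senses bacterial lipopolysaccharide in the cytosol.

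Of the 10 genes, Il1a, Il1b, Il1f9 and Il1rn lie on chromosome 2, Il1r2 and Il18rap on chromosome 1, Il18, Casp1 and Casp4 on chromosome 9 and Nlrp3 on chromosome 11. The 250 bases upstream of the start are shown for Il1b and Il1f9, whose levels differed most and in opposite directions between the WT libraries, and for Il1rn, the antagonist, from RefSeq in build GRCm38.p6. They span chr2:129371140-129371389 on the minus strand, chr2:24186226-24186475 on the plus strand and chr2:24336610-24336859 on the plus strand, in that order. Each runs 5′ to 3′ toward the start, and capitals mark the motif letters found.
Il1b: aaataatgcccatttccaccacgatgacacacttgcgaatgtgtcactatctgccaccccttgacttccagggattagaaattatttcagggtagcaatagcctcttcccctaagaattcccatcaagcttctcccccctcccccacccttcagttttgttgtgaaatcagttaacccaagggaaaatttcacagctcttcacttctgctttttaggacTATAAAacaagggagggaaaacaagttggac
Il1f9: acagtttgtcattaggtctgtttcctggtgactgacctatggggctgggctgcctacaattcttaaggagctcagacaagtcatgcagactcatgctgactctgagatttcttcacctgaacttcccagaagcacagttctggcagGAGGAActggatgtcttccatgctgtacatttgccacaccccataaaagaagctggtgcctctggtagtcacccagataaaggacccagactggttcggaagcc
Il1rn: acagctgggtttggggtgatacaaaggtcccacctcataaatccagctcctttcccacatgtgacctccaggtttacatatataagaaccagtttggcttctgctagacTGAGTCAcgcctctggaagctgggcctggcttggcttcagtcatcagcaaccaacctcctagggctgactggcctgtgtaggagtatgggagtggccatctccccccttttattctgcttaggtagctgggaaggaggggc
The letters searched on both strands were TGACG (the core of a cAMP response element), TTGCNNAA (C/EBP), GAGGAA (the PU.1 core), the NF-κB consensus, TGANTCA (AP-1) and TATAAA (the TATA box). The Il1b window held TATAAA 31 to 26 bases before the start and no other letters searched. The Il1f9 window held GAGGAA 104 to 99 bases before the start, and the Il1rn window shown held TGAGTCA 141 to 135 bases before it. Windows of further Il1rn starts, at chr2:24345041-24345290 and chr2:24345121-24345370, held none of the letters. Of 32851 windows of this length, 12.4% held TATAAA, 23.3% held GAGGAA and 6.75% held TGANTCA. The letters TGACG stood in 17.8% of windows and, among the 10 genes, in that of Casp4 alone. These matches describe letters, not bound sites.

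By the level in the whole library, Il1b was the gene of the set that differed most. Its level was 137 CPM with PBS and 47.1 with ISO. The log2 ratio of ISO over PBS was -1.54 (-1.64 to -1.45), a level 2.92-fold lower with ISO. Thinned shares cover only cells with at least 2000 UMIs, each thinned to 2000. These were 2029 of 2210 cells with PBS and 2137 of 2264 with ISO. The thinned share with an Il1b UMI was 19.9% (18.1 to 21.7) with PBS and 8.61% (7.45 to 9.88) with ISO. Without thinning the shares were 35.9% and 18.0%. The 1% of cells with the most Il1b UMIs held 21.2% of them with PBS and 34.9% with ISO. The cell with the most held 70 Il1b UMIs with PBS and 97 with ISO. Without the 10 such cells of each library the log2 ratio was -1.74.

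Il1f9, an agonist of the IL-36 receptor, had the opposite direction. It stood at 21.3 CPM with PBS and 36.9 with ISO, a log2 ratio of 0.79 (0.64 to 0.95) and a level 1.73-fold higher. The thinned share of cells with a UMI was 10.2% (8.91 to 11.5) in WT+ISO, against 6.46% (5.43 to 7.61) in WT+PBS, and the shares without thinning were 31.0% and 16.7%. Its UMIs were spread more evenly, with 16.6% held by the top 1% of WT+PBS cells and 11.8% by those of WT+ISO. With every cell given equal weight, the ratio was 0.43, below 1.5-fold.

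Il1a, the other IL-1 agonist, was rare, with 44 UMIs under PBS and 43 under ISO. Its level was 1.80 CPM with PBS and 1.46 with ISO, and the interval of the log2 ratio included 0, at -0.30 (-0.94 to 0.34). Il18, whose product acts with IL-12 to induce interferon gamma, was at 7.91 CPM with PBS and 4.83 with ISO. It was lower with ISO by a log2 ratio of -0.71 (-1.03 to -0.39). Its thinned share of cells was 2.22% (1.62 to 2.96) with PBS and 1.59% (1.10 to 2.22) with ISO, so at this depth the shares were not separated.

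Among the molecules that restrain IL-1, the decoy receptor Il1r2 was at 568 CPM with PBS and 377 with ISO. The log2 ratio was -0.59 (-0.63 to -0.56), just past 1.5-fold. A UMI of Il1r2 was found in 61.9% of thinned WT+PBS cells and 52.0% of thinned WT+ISO cells, the widest presence in the set. The antagonist Il1rn was at 88.4 CPM with PBS and 61.2 with ISO, a ratio of -0.53 (-0.62 to -0.44), which stayed just within 1.5-fold, at 1.44-fold lower. Its thinned shares were 21.7% and 16.6%.

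Il18rap, the accessory subunit of the IL-18 receptor, was at 44.6 CPM with PBS and 38.8 with ISO, a log2 ratio of -0.20 (-0.32 to -0.08). Nlrp3 was at 123 CPM with PBS and 85.8 with ISO, a ratio of -0.52 (-0.60 to -0.44), 1.43-fold lower. Its thinned shares were 23.7% and 17.8%. The proteases did not share the lower level. Casp1 was at 24.8 CPM with PBS and 24.3 with ISO, with a ratio of -0.03 (-0.19 to 0.13). Casp4 was at 21.9 CPM with PBS and 28.6 with ISO, with a ratio of 0.38 (0.22 to 0.54).

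**Figure D1:**
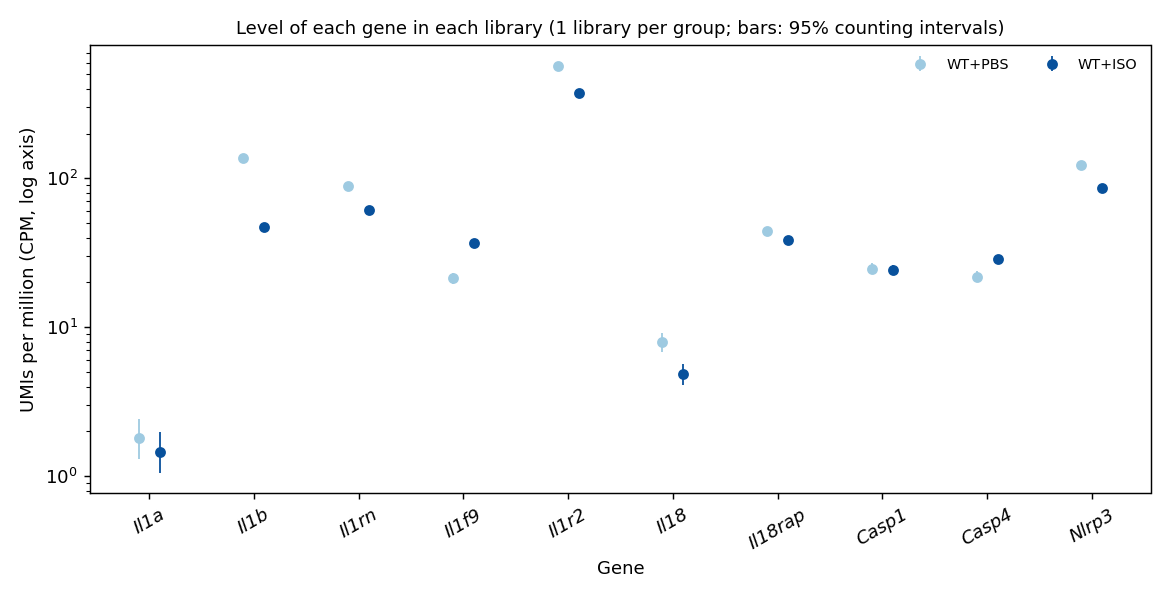
Level of each of the 10 genes in WT+PBS (light blue) and WT+ISO (dark blue), in CPM on a log axis. Points are single libraries and bars are 95% counting intervals. The WT+ISO point lies below the WT+PBS point for Il1b (47.1 against 137 CPM) and above it for Il1f9 (36.9 against 21.3 CPM), while those of Casp1 lie at 24.8 and 24.3 CPM.

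A gene was counted as past the threshold at 1.5-fold or more. With ISO, 3 of the 10 genes (Il1b, Il1r2 and Il18) were at least 1.5-fold lower, against 6.82% of the 11852 genes with at least 50 UMIs in these libraries, and 1 (Il1f9) was at least 1.5-fold higher, against 1.66%. Il1r2 was just inside the threshold, and Il1rn and Nlrp3 were just outside it. In all, 8 of the 10 ratios were below 0, among them those of Casp1 and Il1a, whose intervals included 0. The share of all genes with a ratio below 0 was not counted. The median log2 ratio of the 10 genes was -0.41, against -0.02 for all genes measured. These differences rest on 1 library each and were not tested.

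**Figure D2:**
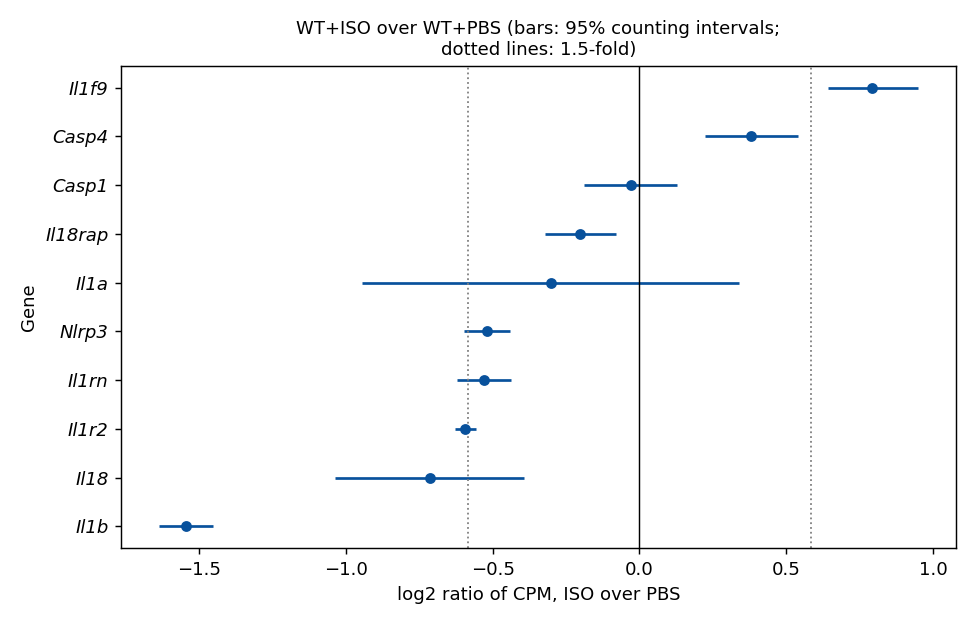
The log2 ratio of CPM, WT+ISO over WT+PBS, for each gene, with 95% counting intervals and dotted lines at 1.5-fold. The points run from -1.54 for Il1b to 0.79 for Il1f9, and the intervals of Casp1 and Il1a include 0.

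All 9303 cells of the series were clustered without the 10 genes or their pathway, so that the levels by cluster did not enter the clustering, and named from marker genes. The 7 clusters were mature neutrophil-like cells led by Rufy4, Acta2 and Mmp9 (cluster 0, 2609 cells), immature neutrophil-like cells with specific granule genes led by Scrg1 and Ltf (cluster 1, 2163 cells), macrophage-like cells led by Mrc1 and C1qb (cluster 2, 1825 cells), an earlier immature neutrophil-like cluster led by Camp and Ngp (cluster 3, 1016 cells), an unnamed cluster led by Kcnq5 and Matn2 (cluster 4, 1010 cells), progenitor-like cells with azurophil granule genes led by Mpo and Elane (cluster 5, 576 cells) and dendritic cell-like cells led by Ccr7 and Ccl22 (cluster 6, 104 cells). Whether the unnamed cluster is a cell type was not tested. The mature neutrophil-like and macrophage-like clusters were mixed. In a finer clustering, below, Retnlg-led mature neutrophil-like cells were 21.1% of the former with PBS and 35.6% with ISO. Cells left unnamed there, led by Acta2 or by Gpnmb, were 60.4% and 18.0% of it with PBS and 41.1% and 22.0% with ISO. Where Retnlg is not given, mature neutrophil-like means the whole cluster. The finer clustering named 51.5% of macrophage-like WT+PBS cells and 61.5% of macrophage-like WT+ISO cells monocyte-like.

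Per UMI, Il1b was highest in the mature neutrophil-like, dendritic cell-like and macrophage-like clusters. Over all cells of the series it was at 408 CPM in mature neutrophil-like, 228 in dendritic cell-like and 176 in macrophage-like cells, then at 32.6 in the Ltf-led immature cluster, 19.0 in the unnamed cluster, 8.90 in the Camp-led immature cluster and 3.83 in progenitor-like cells. In the WT libraries the mature neutrophil-like level was 482 and 199.7 CPM, with PBS and ISO in that order. The macrophage-like level was 245 and 143, and the dendritic cell-like 152 and 127, the latter on only 37 and 16 cells. Within each WT library macrophage-like cells thus stood below mature neutrophil-like and above dendritic cell-like cells. The order of macrophage-like and dendritic cell-like cells over the whole series was the opposite. All of these WT levels were above the 39.3 and 16.7 CPM of the Ltf-led cluster. Macrophage-like cells held 44.9% of all Il1b UMIs and mature neutrophil-like cells 42.7%, while the small dendritic cell-like cluster held 3.09%, fewer than the Ltf-led cluster with 3.95%. After thinning to 2000 UMIs, 34.5% of mature neutrophil-like cells had an Il1b UMI, against 1.05% of progenitor-like cells. These shares cover the cells deep enough to thin, 2057 of 2609 and 571 of 576 in that order. Over all their cells the median depth was 3670 and 23323 UMIs.

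The other cytokines followed related orders. Il1a was at 5.18 CPM in mature neutrophil-like and 3.02 in macrophage-like cells, which held 38.9% and 55.7% of its UMIs, and had no UMI in the Camp-led and progenitor-like clusters, where a floor of 3 counts lies at 0.215 and 0.217 CPM. Il18 was at 21.1 and 15.3 CPM in the same 2 clusters and at 8.26 CPM or less elsewhere. Il1f9 was instead highest in the 2 later neutrophil-like clusters, at 84.6 CPM in mature and 58.8 in Ltf-led immature cells. Its macrophage-like level was 19.5 CPM, with 19.6% of its UMIs, and its dendritic cell-like level 3.44.

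Il1rn was at 254 CPM in mature neutrophil-like cells, 149 in the Ltf-led cluster and 85.6 in macrophage-like cells, and the WT libraries kept these steps apart, at 328 and 244, 168 and 128, and 88.02 and 88.6 CPM. Il1r2 ranked the same clusters in the same order, at 1288, 689 and 546 CPM, and remained at 185 CPM in progenitor-like cells, of which 32.4% had a UMI after thinning. Without thinning, 88.7% of progenitor-like cells had an Il1r2 UMI, and how much of this was free RNA was not tested. Nlrp3 ran from 192 CPM in mature neutrophil-like and 169 in macrophage-like cells to 22.8 in progenitor-like cells. Il18rap was highest in the Ltf-led cluster at 99.95 CPM. Casp1 and Casp4 varied little, by 2.08-fold each between the highest and the lowest cluster.

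**Figure D3:**
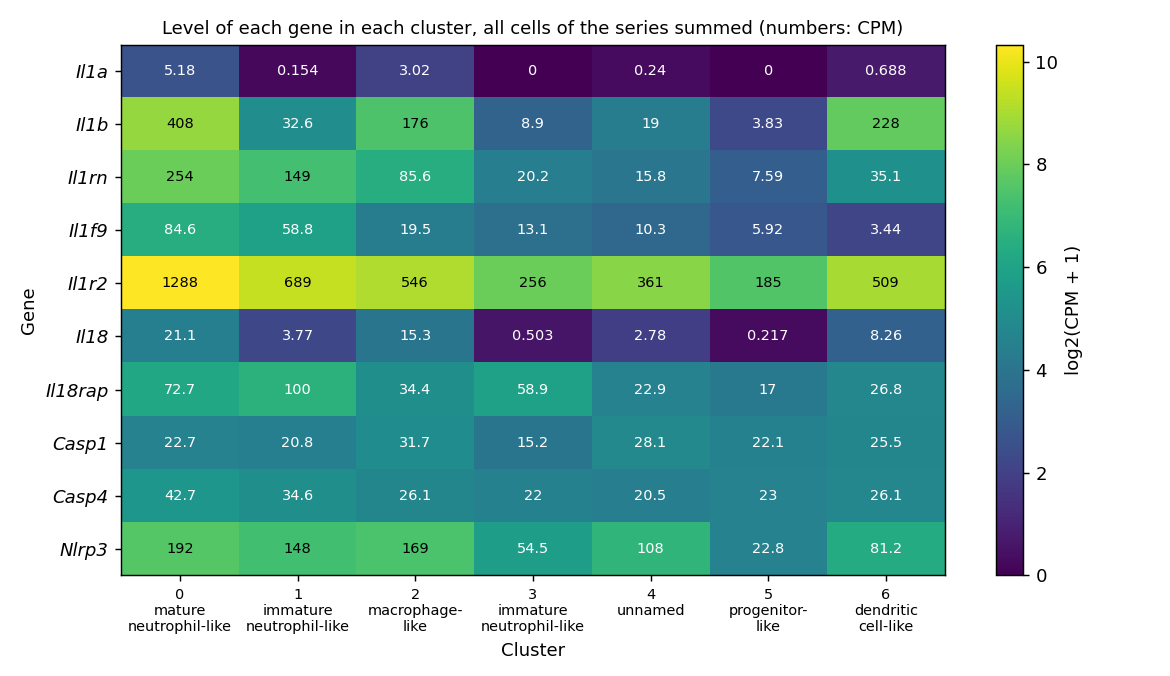
Level of each gene in the 7 clusters with all cells of the series summed, with color for log2(CPM + 1) and the CPM written in each cell. Per UMI, the mature neutrophil-like cluster is highest for 8 of the 10 genes, and Casp1 ranges only from 15.2 to 31.7 CPM. Median depth was 3670 UMIs in mature neutrophil-like and 14564 in macrophage-like cells, so the order per cell can differ.

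A finer clustering with 13 clusters split the neutrophil-like and macrophage-like cells further. The levels in this paragraph are over all cells of the series, including the libraries not reported. An unnamed cluster led by Acta2 and Csf1 had the highest Il1b, at 517 CPM, and the highest Il18, at 25.0. Its cells had a median depth of 0.371 times that of their libraries. Mature neutrophil-like cells led by Retnlg had 325 CPM of Il1b and 109.9 of Il1f9. They had the highest Il1r2, at 1497 CPM, Nlrp3, at 220, and Casp4, at 52.5. Another unnamed cluster led by Gpnmb, Ccl3 and Ccl4 had the highest Il1rn, at 385 CPM, Il1f9, at 112.9, and Il1a, at 8.49 on 17 UMIs. Its Il1b was at 95.4 CPM. For Il1a, Il1f9, Il18, Casp4 and Nlrp3 the counting interval of the highest cluster overlapped that of the next, so their top cluster was not set apart. C1q-led macrophage-like cells had 260 CPM of Il1b and F13a1-bearing monocyte-like cells 85.9. The order of Il1b differed in WT+ISO alone, where C1q-led cells stood above the Acta2-led and Retnlg-led cells, with values given below.

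The makeup of the libraries moved with ISO. Macrophage-like cells were 17.1% of WT+PBS and 10.6% of WT+ISO, and mature neutrophil-like cells 33.5% and 23.9%. The 7 macrophage markers summed to 144 and 61.8 CPM, the 8 dendritic cell markers to 921 and 299, and the 5 eosinophil markers to 64.1 and 10.5, with no marker of these lists at 0. The 7 mature neutrophil markers summed to 112334 CPM with PBS and 131023 with ISO, opposite in direction to the share of mature neutrophil-like cells, the specific granule markers to 14643 and 21319 and the azurophil granule markers to 4162 and 5440. With every cluster held at its share of UMIs over all cells of the series, the ratio of ISO over PBS was -0.97 for Il1b, 0.98 for Il1f9, -0.46 for Il1r2, -0.33 for Nlrp3, -0.27 for Il1rn and -0.22 for Il18. With the 13 finer clusters held in the same way, a weighting added after seeing the data, the ratio was -0.81 for Il1b, 0.97 for Il1f9, -0.48 for Il1r2 and -0.10 for Il18. Il1b and Il1f9 were past 1.5-fold under both weightings, and Il1r2 and Il18 under neither. Il1a, at -0.30 by library, was at 0.50 and 0.83.

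Within clusters, Il1b was lower with ISO in all 7, with 5 intervals below 0. In mature neutrophil-like cells the log2 ratio was -1.27 (-1.42 to -1.13), and in macrophage-like cells it was -0.77 (-0.91 to -0.64). In the Ltf-led immature cluster it was -1.24 (-1.70 to -0.78), at 39.3 CPM with PBS and 16.7 with ISO, and in the unnamed cluster -1.11 (-1.52 to -0.72), at 27.1 and 12.5 CPM. Progenitor-like cells had 4.71 CPM with PBS and 0.871 with ISO (-2.44, -4.23 to -0.94). In these clusters of low Il1b, free RNA and expression cannot be told apart. The intervals of the Camp-led cluster (-0.68, -1.39 to 0.03) and of the 37 and 16 dendritic cell-like cells (-0.26, -0.86 to 0.32) included 0. Within the classes the cells shifted between finer clusters. The Acta2-led cluster held 60.4% of the mature neutrophil-like cells with PBS and 41.1% with ISO, and the Retnlg-led cluster 21.1% and 35.6%. C1q-led cells were 48.3% and 36.0% of the macrophage-like cluster, and monocyte-like cells 51.5% and 61.5%. The finer clustering gave a lower Il1b level with ISO in 12 of 12 clusters that held at least 20 of its UMIs, among them the Acta2-led cells at 567 and 220.1 CPM, the Retnlg-led cells at 451 and 219 and the monocyte-like cells at 122 and 56.3. In C1q-led macrophage-like cells the difference was smaller, at 365 and 303 CPM (-0.27, -0.43 to -0.10).

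Il1f9 was higher with ISO in all 6 clusters with at least 20 UMIs, with 5 intervals above 0. The largest ratio was in macrophage-like cells, at 11.4 CPM with PBS and 48.4 with ISO, a log2 ratio of 2.08 (1.69 to 2.50). The unnamed cluster was next, with 4.86 and 16.8 CPM (1.79, 1.16 to 2.46), and then the Camp-led immature cluster, with 7.38 and 18.8 CPM (1.35, 0.68 to 2.07). In mature neutrophil-like cells the levels were 78.3 and 118 CPM, a ratio of 0.59 (0.34 to 0.84). Progenitor-like cells had 5.27 and 8.54 CPM (0.70, -0.09 to 1.54). Where Il1f9 was low, free RNA was likewise not separated from expression. Over the neutrophil-like and progenitor-like clusters pooled the ratio was 0.30, below 1.5-fold, where that of Il1b was -1.86. The 0.30 lay below the ratio of each of these clusters alone, lowest in the Ltf-led cluster at 0.37 (0.08 to 0.67). Pooling also carries their makeup. Mature neutrophil-like cells held 12.4% of UMIs with PBS and 9.20% with ISO, the Ltf-led cluster 10.5% and 13.7%, the Camp-led cluster 12.8% and 19.0%, and progenitor-like cells 14.8% and 19.5%. In the finer clustering 1 of 12 clusters went the other way, the Retnlg-led mature neutrophil-like cells, at 124 and 110.4 CPM (-0.16, -0.54 to 0.22).

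Among the remaining genes, Il18rap was lower with ISO in 7 of 7 clusters, by log2 ratios of -0.65 to -0.17 with 1 interval below 0. Casp1 was higher in 6 of 7, with no interval apart from 0. Il1r2 was lower with ISO in 6 of 7 clusters, from 1406 to 942 CPM in mature neutrophil-like cells and from 669 to 416 in macrophage-like cells, with dendritic cell-like cells at 546 and 549. Nlrp3 was lower in 6 of 7 clusters, all 6 with intervals below 0. Il1rn was lower in 4 of 6 clusters and did not differ beyond counting error in macrophage-like cells, at 88.02 and 88.6 CPM (0.01, -0.18 to 0.20). Il18 did not differ beyond counting error in any of the 3 clusters with at least 20 UMIs. Casp4 was higher with ISO in 5 of 7 clusters, with 3 intervals above 0, among them mature neutrophil-like cells at 34.4 and 54.4 CPM. Il1a, at 2.93 and 7.48 CPM in macrophage-like cells, was higher with ISO there (1.35, 0.47 to 2.27), on only 18 and 32 UMIs. In the whole WT+ISO library 1 cell held 8 of 43 Il1a UMIs, and the interval leaves such clumping out. In mature neutrophil-like cells the Il1a ratio was opposite, at -0.91 (-2.16 to 0.24).

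**Figure D4:**
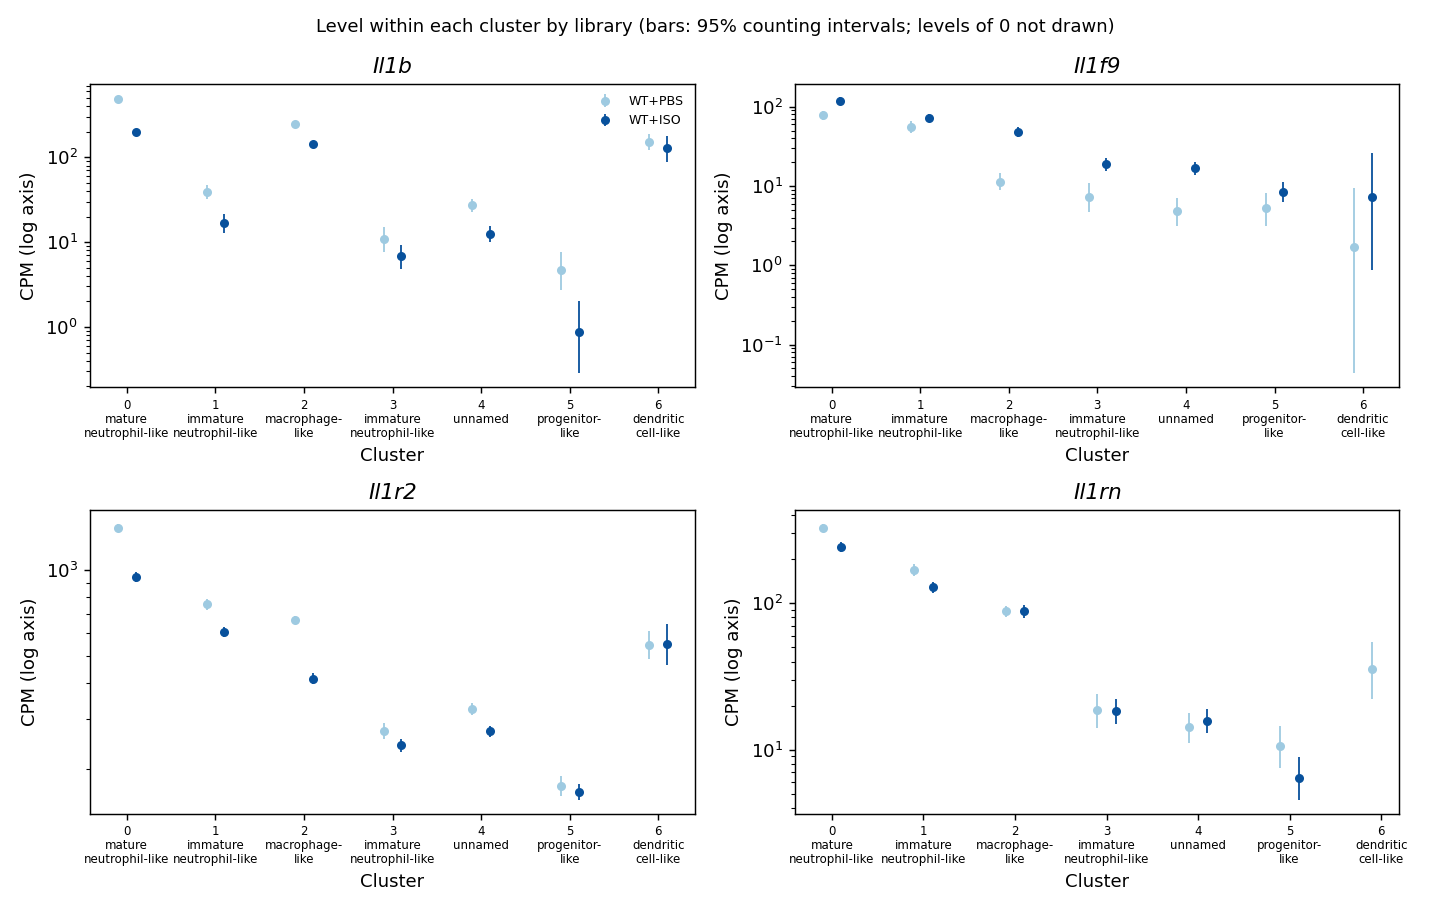
CPM of Il1b, Il1f9, Il1r2 and Il1rn in each cluster of WT+PBS and WT+ISO on log axes, with 95% counting intervals. The WT+ISO point of Il1b lies below the WT+PBS point in all 7 clusters. That of Il1f9 lies above it in the 6 clusters with at least 20 UMIs of the gene, from 11.4 to 48.4 CPM in macrophage-like cells.

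The wider pathway was described with 3 lists, whose counts stand against 6.82% of all genes at least 1.5-fold lower and 1.66% higher. Of 12 further IL-1 family and receptor genes, 6 had at least 50 UMIs in the WT libraries. None was higher by that fold with ISO and 1 was lower, the signaling receptor Il1r1, on 59 and 26 UMIs (-1.45, -2.18 to -0.76). Of 21 inflammasome and pyroptosis genes 19 were measured, with none higher and 3 lower. The sensor Nlrp1b was at 16.3 CPM with PBS and 10.5 with ISO (-0.63, -0.85 to -0.42), although close copies of this gene can share reads. P2rx7, the ATP-gated channel that triggers NLRP3, was at 6.64 and 3.27 CPM (-1.02, -1.40 to -0.65). The third, Gbp5, had an interval that included 0 (-0.60, -1.33 to 0.12). Of 14 genes of IL-1 receptor signaling, all measured, none was higher and 1 lower, the inhibitor Tnfaip3, at 20.3 and 13.5 CPM (-0.59, -0.79 to -0.40). The medians of the 3 lists were 0.03, -0.16 and -0.11, against -0.02 for all genes. Il1r1 and Gbp5 fell below the 100 UMIs set for naming and were named after their values were seen. Over the series Il1r1, Nlrp1b and P2rx7 were highest in macrophage-like cells, and Gbp5 and Tnfaip3 in dendritic cell-like cells. Macrophage-like cells held 25.1% of UMIs with PBS and 14.6% with ISO, and dendritic cell-like cells 2.40% and 0.935%. The ratios of these lists are by whole library and carry this makeup. Whether they hold within clusters was not tested.

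The genes whose levels followed those of the set most closely were sought among 9237 genes over 26 sums of cells by cluster and library over the whole series, which share libraries and depth. For Il1b they were Camk1d, Capzb and Map3k2, with Pearson correlations of 0.98, 0.97 and 0.96. For Il1rn they were Cd84, F2rl2 and Tlr13, from 0.98 to 0.97. For Il1f9 they included Cd300lb and Slfn1, at 0.93, for Il1r2 Klhl2, Mcl1 and Ogt, from 0.96 to 0.95, and for Nlrp3 Rara, Emilin2 and Lyn, near 0.97. For Il18 they were Atp2b1, Tmem243 and Egr2, and for Il18rap Gpsm3, Rasgrp4 and Stk38, from 0.97 to 0.96. Il1a was closest to Rnf128, Ccl2 and Cmklr1, from 0.92 to 0.90. It had only 149 UMIs over the series, whereas the genes compared needed at least 500, so its partners are less certain. Casp1 (Rab1a, Ddx31 and Atg2b) and Casp4 (Cass4, Slc11a1 and Oasl2) had no partner above 0.86. Il1b and Il1rn themselves had a correlation of 0.77 over these sums. Over the 8593 thinned cells their Spearman correlation was only 0.08. Of these cells 1305 had an Il1b UMI and 1654 had 1 of Il1rn. Cells with both were 27.0% of those with Il1b and 21.3% of those with Il1rn.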

How the data were processed

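Single-cell RNA-seq of live CD11b+ MDSCs was analysed from the processed files. The files the authors deposited hold raw UMI counts for each gene in each cell. Their header names Cell Ranger 7.0.0, and the submitters' processing notes name Cell Ranger 6.0.0, Seurat and mm10. Groups followed the sample titles. Results of the other 2 libraries, and 2 genes that the rule below names, are not reported here. The 12 multiplexing tags did not enter the counts.

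A filter of 200 or more genes and 10% or less mitochondrial UMIs passed 9303 of 9525 cells, and the WT libraries held 24393687 and 29400468 UMIs. UMIs were summed per library or cluster and given per 1000000 UMIs (CPM). Intervals are 95% (exact Poisson, Clopper-Pearson or conditional binomial). On simulated Poisson counts for the WT comparison, intervals covered 94% of the true ratios of the 200 changed genes among 11852. The intervals are built for such counts, so this checks the computation only and does not cover UMIs clumped in few cells.

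Clusters were found with scanpy 1.11.5 (2000 variable genes, 30 principal components, 15 neighbours, Leiden resolution 0.4; finer clusters 1.0). A name needed at least 3 markers of a list detected in at least 10% of the cells, and a marker of that list among the cluster's 10 leading genes. The list with the most markers among the leading genes gave the name. Scrublet called 17 doublets (0.183%, against 6% expected), so doublets were not removed and remain possible.

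The genes named were the 10 of the set, pathway genes with at least 100 UMIs in 2 libraries and past 1.5-fold with ISO, and the 3 most alike genes by correlation of log2(CPM + 10). The genes, lists and tests were chosen with earlier results of these data known. Promoters of all 10 were matched in RefSeq. Alternatives were other cell filters, scalings, weights, clusterings and thresholds.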

Additional observations from a re-analysis of the deposited data

How the results depend on the processing

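Each library is 1 group, so leaving out a replicate was not possible, and depth limits Il1a (44 and 43 UMIs) and Il18 most. No paired analysis was possible because the labels give only replicate 1 for every library. The scalings moved the median of all genes by less than 0.1 on the log2 scale. Of 140 log2 ratios under alternatives 102 stayed within their counting interval, and 25 of 34 counts stayed within 1.5 times. The highest cluster level of each gene was less stable. Under other clusterings 20 of 30 such levels moved outside their counting interval. The shares of cells with a UMI all fell on thinning, by construction.

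The Il1b ratio in WT (-1.54) was -0.77 in the macrophage-like cluster alone, -0.97 at fixed cluster weights, -0.81 at fixed weights of the finer clusters, -1.74 without the 10 cells with the most Il1b UMIs, -1.78 with equal weight per cell and -1.86 in the neutrophil-like and progenitor-like clusters alone. The Il1f9 ratio (0.79) was 0.30 in the pooled neutrophil-like and progenitor-like clusters, below that of each of them alone. It was 0.43 with equal weights, 0.98 at fixed cluster weights, 0.97 at fixed finer weights and 2.08 in macrophage-like cells. Selections by tag share or by cluster and the finer weights were chosen after seeing the data.

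With ISO in WT, the 3 lower genes became 6 in the pooled neutrophil-like and progenitor-like clusters. They became 1 (Il1b) at either set of fixed weights and 1 at a fold of 2. The 1 higher gene became 0 in those pooled clusters, with equal weights and at a fold of 2. It became 2 (Il1a and Il1f9) in macrophage-like cells, where Il1a had only 18 and 32 UMIs, and at fixed finer weights. The share of all genes past the fold was computed at the main setting only, so the counts under these alternatives cannot be set beside it. Pooled clusters also carry changes in makeup between the libraries. The causes were not tested. Alternatives for the other 2 libraries are not reported here.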
